A study of Rattus norvegicus with 26 samples.

Results

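Contractile and actin cytoskeleton genes were followed in primary rat hepatocytes treated with TCDD or PCB 126. The 7 genes were Acta1, Acta2, Tagln, Myl9, Tpm1, S100a10 and Anxa5. They were selected on the measured PCB 126 values, since several of them fell most steeply with that chemical, so every PCB 126 value of these genes is a description with no test. The array carried 16 probe sets that name 1 of these genes alone, of 8799 probe sets in all. They stood for 7 of the 4736 genes that have such a probe set. Of the 16 probe sets, 13 passed a filter on dim values and were tested, among 5197 probe sets of the whole array that passed. To pass, a probe set needed at least 2 arrays above 3.71 log2, which is the median of the table. Every gene kept at least 1 probe set. Of the 13, 11 were above that level on all 26 arrays. Myl9 S77900_at was above it on 12 arrays, among them both vehicle arrays and 1 of the 4 arrays at the highest TCDD doses, and Tpm1 M34134_s_at on 4 arrays, all of pool 2. Since they entered through the side on which they were high, their differences on that side are given with no p. Below the filter stayed the Acta2 probe sets rc_AA900769_s_at and X06801cds_i_at and the Tpm1 probe set X02412_at, which read no higher than 2.61 log2 on any array. Another 4 probe sets name Acta2 together with the cardiac actin gene Actc1 and were not counted. The brightest of them ranged from 4.39 to 5.36 log2.

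The cells were hepatocytes of female Sprague Dawley rats, from 2 pools of 3 animals each, exposed for 48 hours in culture. The vehicle was 0.5% DMSO, which had 1 array in each pool. The doses of TCDD, a chlorinated dioxin, that both pools received were 0.01 and 1 pM and 0.1, 10 and 316 nM. Those of PCB 126, a coplanar polychlorinated biphenyl, were 1 pM and 0.1, 10, 1000 and 10000 nM. Pool 2 alone received 10 pM and 1 nM of either chemical as well. This made 26 arrays, 11 of pool 1 and 15 of pool 2, with 12 arrays for each chemical. No dose had more than 1 array of a pool. Since arrays of 1 pool share their mixed animals, the p-values speak of array-to-array spread and not of rat-to-rat spread. The question of the study was how the dose responses to the 2 chemicals compare.

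Muscle contracts when myosin pulls on actin filaments, and other cells use the same parts to hold their shape, spread and move. Acta1 encodes the actin of skeletal muscle and Acta2 the actin of smooth muscle, which also marks activated stellate cells in the liver. Tagln encodes transgelin, a protein of smooth muscle that binds actin filaments, and Myl9 a regulatory light chain of myosin. Tpm1 encodes tropomyosin, which lies along the filament and controls access to it. S100a10 is the partner of annexin A2 under the cell membrane, where the pair meets the cortical actin. Anxa5 encodes annexin A5, which binds phosphatidylserine in membranes when calcium is present. Many actin genes are controlled by serum response factor, a transcription factor that works with actin-sensing partners and binds the CArG box. TCDD and PCB 126 are both ligands of the aryl hydrocarbon receptor, whose dimer with ARNT recognises the core GCGTG in DNA. Cyp1a1, a cytochrome P450 gene, is its classical target.

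The promoters of the 2 actin genes among the members are shown. RefSeq promoter sequences of the rat assembly GRCr8 were found for 4 of the 7 genes (Acta1, Acta2, Tpm1 and Anxa5). Each line gives the 250 bases before the listed start of transcription, 5′ to 3′. Both genes lie on the minus strand, Acta1 with this window at chr19:68784195-68784444 and Acta2 at chr1:241172504-241172753. Capitals mark a CArG box, searched in its strict form on both strands.
Acta1: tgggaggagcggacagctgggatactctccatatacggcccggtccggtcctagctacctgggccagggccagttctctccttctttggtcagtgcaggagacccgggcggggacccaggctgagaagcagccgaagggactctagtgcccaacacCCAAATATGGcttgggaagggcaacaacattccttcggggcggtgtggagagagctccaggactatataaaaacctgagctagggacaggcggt
Acta2: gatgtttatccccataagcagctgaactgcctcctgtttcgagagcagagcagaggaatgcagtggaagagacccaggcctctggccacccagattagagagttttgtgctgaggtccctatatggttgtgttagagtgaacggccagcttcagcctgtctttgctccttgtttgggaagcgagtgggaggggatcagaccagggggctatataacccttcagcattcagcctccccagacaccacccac
The Acta1 window held 1 CArG box, CCAAATATGG, from 94 to 85 bases before the start. A strict CArG box was found in 501 of 33469 promoter windows of the same length, or 1.497%. The windows of Acta2, Tpm1 and Anxa5 held no match of this form. The strict form allows no mismatch, so near matches that differ at 1 base were not counted. Both actin windows hold such near matches, for instance ccctatatgg in Acta2 and ccatatacgg in Acta1. GCGTG, searched on both strands, was absent from the windows of both actin genes, while Tpm1 had 1 match and Anxa5 had 3. Of all windows, 25.9% held this core and 2.58% held it 3 or more times. For Tpm1 and Anxa5 the listed start lies inside the annotated gene, downstream of its outermost start, so their windows are not printed. These matches are letters in a window, and binding was not measured.

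The labelled cell type and treatments were checked on the arrays. Albumin (Alb) read between 13.72 and 14.50 log2 on all 26 arrays. It is 1 of 12 listed hepatocyte markers, 10 of them above the filter. Others ranged more widely, such as Apob from 8.73 to 11.74 log2 and Tat from 7.03 to 9.43. Pck1 read at most 3.90. In the TCDD trend given below 1 of the 10 was called lower, against 3.10% of all probe sets called. At the highest TCDD doses 1 was higher, against 2.25%, and in the PCB 126 trend 2 were higher, against 4.25%. Cyp1a1 read 3.45 log2 in vehicle of pool 1 and 3.28 in vehicle of pool 2, and 12.29 and 12.16 at 0.1 nM TCDD. A few arrays stood apart. The pool 2 array labelled 1 pM PCB 126 had Cyp1a1 at 10.80 log2, against 3.21 on the pool 1 array of that dose and 7.91 at 10 pM in pool 2. The pool 2 array of 316 nM TCDD had Acta1 at 9.71 log2, above the 6.99 of pool 1, with Cyp1a1 at 11.69. The pool 2 array of 10 pM TCDD had the widest gap between the 3′ and 5′ probe sets of the actin control, 2.19 log2, a measure of RNA or labelling quality. That gap was 0.64 to 1.06 in pool 1 and 1.24 to 2.19 in pool 2, so this measure differed between the pools. Values without these arrays are given for TCDD slopes below, and values without the 316 nM array of pool 2 for the high-dose TCDD differences.

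The actin of skeletal muscle, Acta1, spanned 5.34 log2 over the arrays. In vehicle it read 10.16 log2 in pool 1 and 10.87 in pool 2. With rising TCDD, pool 1 read 10.37, 9.83, 6.58, 7.50 and 6.99 log2 at 0.01 pM, 1 pM, 0.1 nM, 10 nM and 316 nM. Pool 2 read 10.34, 9.93, 8.75, 6.96, 6.46, 6.70 and 9.71 at 0.01 pM, 1 pM, 10 pM, 0.1 nM, 1 nM, 10 nM and 316 nM TCDD. Both pools were thus near vehicle up to 1 pM and low from 0.1 nM, apart from the high 316 nM array of pool 2. With PCB 126, pool 1 read 10.57, 9.77, 7.47, 7.42 and 5.53 log2 at 1 pM, 0.1 nM, 10 nM, 1000 nM and 10000 nM. Pool 2 read 10.30, 10.76, 10.17, 8.30, 7.49, 7.20 and 6.89 at 1 pM, 10 pM, 0.1 nM, 1 nM, 10 nM, 1000 nM and 10000 nM PCB 126. Here the arrays were still near vehicle at 0.1 nM and low from 10 nM in both pools. In a bulk culture, fewer cells of a type and less RNA per cell cannot be told apart.

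Tagln followed the same course. Its probe set M83107_g_at read 10.53 log2 in vehicle of pool 1 and 11.09 in vehicle of pool 2. TCDD gave 10.90, 10.02, 7.46, 9.25 and 8.48 log2 in pool 1, in order of dose. In pool 2 TCDD gave 10.95, 10.43, 9.98, 8.15, 7.79, 8.38 and 10.14 log2. The lowest arrays were again those from 0.1 nM up, and the 316 nM array of pool 2 again stood near the low doses. PCB 126 gave 10.46, 9.81, 8.11, 7.96 and 6.15 log2 in pool 1. In pool 2 it gave 10.84, 11.28, 10.72, 9.35, 8.78, 8.60 and 8.73 log2. The second probe set, M83107_at, ranged from 5.82 to 11.37 log2 over the arrays, a span of 5.54.

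The myosin light chain Myl9 was read by a brighter and a dimmer probe set. S77900_g_at read 6.65 log2 in vehicle of pool 1 and 7.51 in vehicle of pool 2. After TCDD it read 6.43, 6.20, 4.38, 4.09 and 5.25 log2 in pool 1, from the lowest dose to the highest. The same doses and 2 more in pool 2 read 6.89, 6.55, 5.72, 4.86, 4.84, 4.96 and 6.04 log2. Every TCDD array from 0.1 nM up was below both vehicle arrays. With PCB 126 it read 6.61, 6.36, 4.16, 4.25 and 4.81 log2 in pool 1. Pool 2 read 6.79, 7.17, 6.48, 5.52, 5.28, 5.09 and 3.92 log2. The dimmer probe set S77900_at ranged from 3.22 to 5.46 log2, so that its low values lie near the floor of the array and its changes are compressed.

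S100a10 moved less, from a higher level. It read 10.79 log2 in vehicle of pool 1 and 11.18 in vehicle of pool 2. In pool 1 the TCDD arrays read 11.03, 10.51, 9.14, 10.23 and 9.74 log2. In pool 2 they read 10.92, 10.64, 10.92, 10.30, 10.03, 10.41 and 10.68 log2. The 0.1 nM array of pool 1 was the lowest of all 26 arrays, and at 316 nM pool 2 was again close to its low doses. PCB 126 gave 10.69, 10.69, 9.77, 10.26 and 9.17 log2 in pool 1. Pool 2 gave 10.89, 10.98, 11.01, 10.64, 10.51, 10.32 and 10.28 log2, a steady decline from 0.1 nM on.

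Tropomyosin was read by 4 probe sets that passed the filter, and they did not move as one. The probe set M60666_s_at read 11.87 log2 in vehicle of pool 1 and 12.03 in vehicle of pool 2. TCDD gave 11.92, 12.11, 11.44, 11.66 and 11.10 log2 in pool 1. In pool 2 it gave 11.99, 11.95, 11.70, 11.35, 11.42, 11.29 and 11.74 log2. Levels were lower from 0.1 nM up in both pools, by about the width of 1 log2 unit or less. PCB 126 arrays ran from 11.24 to 12.10 log2 in pool 1 and from 11.42 to 12.09 in pool 2. Of the other probe sets, M15474cds_s_at ranged from 10.35 to 12.07 log2, with its lowest value on the 10 pM TCDD array of pool 2. The dim probe sets rc_AI144767_s_at (4.19 to 5.70) and M34134_s_at (-0.085 to 4.35) did not follow dose in the same way. Probe sets with the suffix _s can match several transcripts, and the splice forms of Tpm1 cannot be told apart here.

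Anxa5 went the other way. Probe set AF051895_at read 9.60 log2 in vehicle of pool 1 and 10.20 in vehicle of pool 2. In pool 1 TCDD gave 9.85, 9.80, 10.45, 11.23 and 10.65 log2. In pool 2 it gave 10.24, 10.31, 10.14, 10.33, 10.57, 10.57 and 10.41 log2. From 0.1 nM up, every array lay above the vehicle of its pool. PCB 126 gave 10.32, 10.20, 11.23, 11.05 and 10.67 log2 in pool 1. Pool 2 gave 10.30, 10.30, 10.09, 10.19, 10.65, 11.08 and 11.01 log2. The other probe set, D42137exon_s_at, ranged from 9.03 to 10.71 log2, and its lowest arrays were also vehicle and the lowest TCDD dose of pool 1.

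Acta2, the actin of smooth muscle, showed little. Its kept probe set X06801cds_f_at read 5.95 log2 in vehicle of pool 1 and 5.59 in vehicle of pool 2. TCDD gave 5.98, 5.90, 5.92, 5.49 and 5.79 log2 in pool 1. Pool 2 gave 5.49, 5.58, 4.36, 5.31, 5.24, 5.53 and 5.57 log2, where the single low value is the 10 pM array with the wide actin gap. The PCB 126 arrays ranged from 5.28 to 6.06 log2. The suffix _f marks probes that can match a gene family, so the reading may include other actins.

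**Figure D1:**
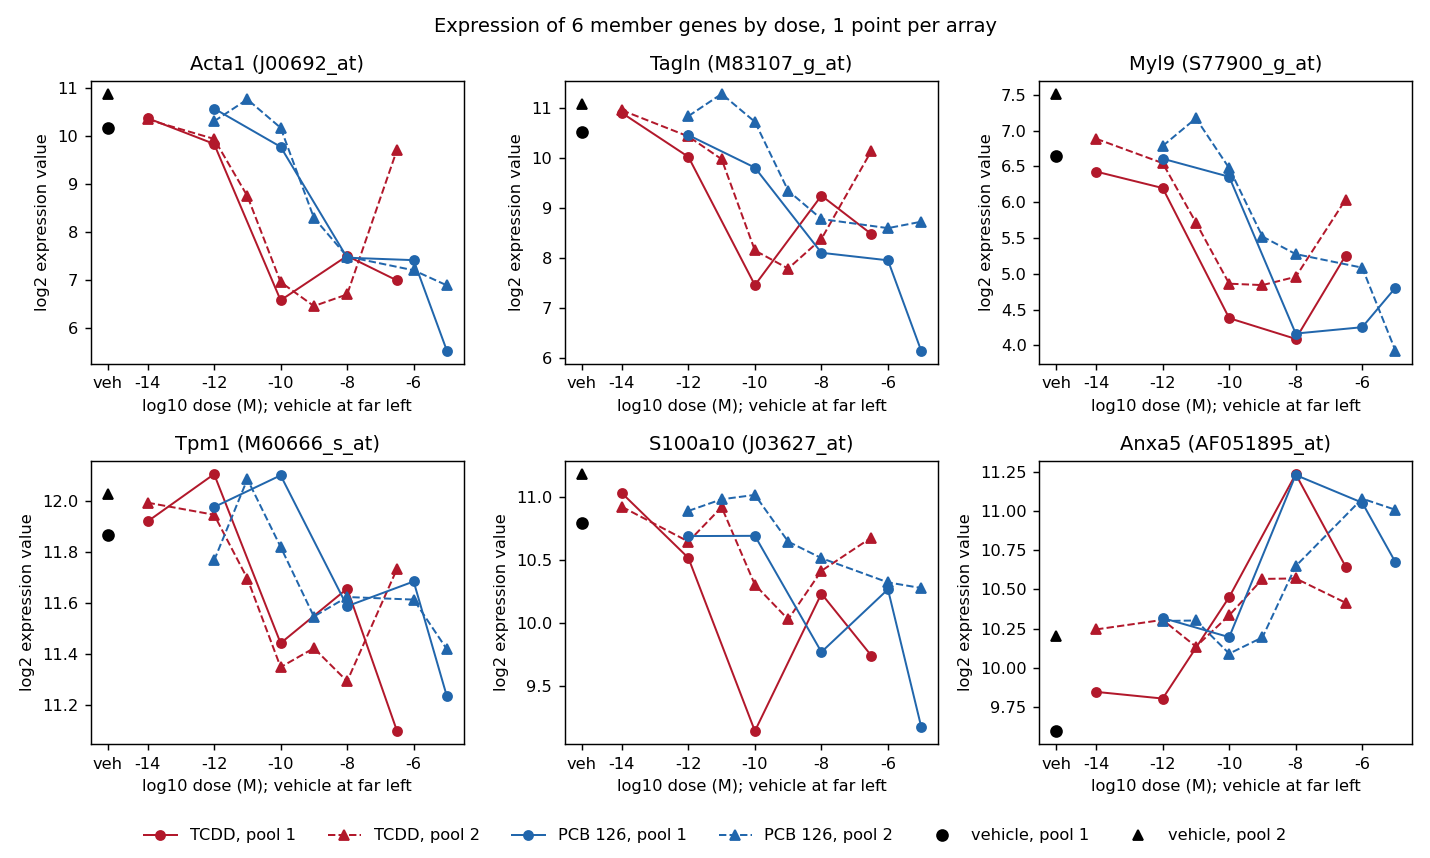
Each panel plots the log2 expression value of 1 probe set against the log10 molar dose, with 1 point per array, circles for pool 1 and triangles for pool 2, TCDD in red, PCB 126 in blue and vehicle in black at the far left. Acta1, Tagln and Myl9 drop between 1 pM and 0.1 nM TCDD and between 0.1 nM and 10 nM PCB 126, the 316 nM TCDD array of pool 2 lies high for these genes, and Anxa5 rises.

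The TCDD arrays were not used to choose the members, and their slope was tested. A limma model over all 26 arrays gave the change in log2 value per decade of dose, with Benjamini-Hochberg adjustment over the 5197 probe sets. Of the 13 member probe sets, 1 fell with TCDD and 0 rose, where 3.10% of all probe sets were called, 1.46% lower and 1.64% higher. The one that fell was Tpm1 M60666_s_at, at -0.088 ± 0.023 log2 per decade (SE), limma adjusted p = 0.0333, and 7 of the 26 left-out arrays ended this call, with an adjusted p of up to 0.197. Without the pool block its limma adjusted p was 0.0772. The other kept Tpm1 probe sets did not share this call. M15474cds_s_at was at -0.081 and rc_AI144767_s_at at 0.027 per decade (limma adjusted p = 0.308 and 0.760), and the dim M34134_s_at was at 0.15. Acta1 had a slope of -0.40 ± 0.11 log2 per decade, with a limma adjusted p = 0.0507. For Myl9 S77900_g_at the slope was -0.22 ± 0.067 (limma adjusted p = 0.0699) and for S77900_at -0.15 ± 0.051. Tagln had slopes of -0.31 ± 0.11 and -0.28 ± 0.094 (limma adjusted p = 0.127 and 0.118). S100a10 was at -0.11 ± 0.040 (limma adjusted p = 0.168). The Anxa5 slopes were 0.10 ± 0.033 for AF051895_at and 0.10 ± 0.031 for D42137exon_s_at (limma adjusted p = 0.105 and 0.0658). Acta2 had -0.0081 ± 0.032 per decade (limma adjusted p = 0.933).

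Single arrays moved several TCDD slopes across the threshold. Without the pool 2 array of 316 nM TCDD, Acta1 fell by 0.58 log2 per decade (limma adjusted p = 0.000332). Without it Tagln fell by 0.44 and 0.38 (limma adjusted p = 0.0127 and 0.0136), and Myl9 S77900_g_at fell by 0.30 (limma adjusted p = 0.00709). Anxa5 D42137exon_s_at then rose by 0.12 per decade (limma adjusted p = 0.0341). The number of probe sets called over the whole array also went up, from 161 to 257, with this array left out. Acta1 also passed when either array of 0.1 nM TCDD was dropped, that of pool 1 or that of pool 2 (slopes of -0.39 in both cases, limma adjusted p = 0.0353 and 0.0438). Myl9 S77900_g_at passed without the pool 1 array of 316 nM TCDD, at -0.28 (limma adjusted p = 0.0499). Leaving out the highest dose of each chemical put Acta1 at -0.68 log2 per decade (limma adjusted p = 0.000375). In that setting Tagln was at -0.51 and -0.48 (limma adjusted p = 0.0171 and 0.00739). Leaving out the pool 2 arrays of 10 pM TCDD or of 1 pM PCB 126 left the Acta1 slope at -0.40, with limma adjusted p = 0.0571 and 0.0594. Without that 10 pM TCDD array Anxa5 D42137exon_s_at rose by 0.11 per decade (limma adjusted p = 0.0388), while leaving out that 1 pM PCB 126 array changed no member's call in this trend.

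Within each pool the slopes had the same sign for most members. In pool 1 Acta1 changed by -0.48 ± 0.16 log2 per decade of TCDD and in pool 2 by -0.31 ± 0.16. Tagln M83107_g_at had -0.30 ± 0.14 and -0.26 ± 0.13, and Myl9 S77900_g_at had -0.25 ± 0.099 and -0.20 ± 0.096. Anxa5 AF051895_at had 0.16 ± 0.046 in pool 1 and 0.042 ± 0.045 in pool 2, and D42137exon_s_at had 0.19 ± 0.040 and 0.028 ± 0.039. The difference of the TCDD slope between the pools was tested too, and 0 of 13 member probe sets and 0 of all 5197 (0%) passed by limma, with 396 at an unadjusted p below 0.05 and 2 called when eBayes was run without trend and robust. The smallest limma adjusted p among the members was 0.458, for D42137exon_s_at of Anxa5.

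The highest TCDD doses were then set against vehicle, which needs no straight line in dose. The mean of 10 nM and 316 nM minus vehicle, within pools, was called lower for 3 of 13 member probe sets and higher for 0, where 2.25% of all probe sets were called, 0.904% lower and 1.35% higher. Acta1 was lower by 6.90-fold, at -2.79 ± 0.50 log2 (SE, 4 TCDD and 2 vehicle arrays), limma adjusted p = 0.00705. Myl9 was lower by 3.99-fold on S77900_g_at, at -2.00 ± 0.31 (limma adjusted p = 0.00256). S77900_at, at -1.24 ± 0.27, is the third probe set of that count, and without it the count is 2 of 12. Tagln stood at -2.00 ± 0.53 and -1.74 ± 0.46, with limma adjusted p = 0.0689 and 0.0655. S100a10 was at -0.72 ± 0.25 (limma adjusted p = 0.204) and Tpm1 M60666_s_at at -0.50 ± 0.16 (limma adjusted p = 0.181). Of the other Tpm1 probe sets, M15474cds_s_at was at -0.43, rc_AI144767_s_at at 0.084 and M34134_s_at at 0.67. Anxa5 was at 0.82 ± 0.23 and 0.59 ± 0.23 (limma adjusted p = 0.101 and 0.319). Acta2 differed by -0.17 ± 0.16 (limma adjusted p = 0.831).

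These calls rest on few arrays. Leaving out the vehicle array of pool 1 gave Acta1 a limma adjusted p = 0.0568, and leaving out that of pool 2 gave 0.109, with differences of -2.96 and -2.61. Without the vehicle array of pool 2, Myl9 S77900_g_at was at -1.78 log2 (limma adjusted p = 0.0524). Without the pool 2 array of 316 nM, Acta1 was at -3.42 (limma adjusted p = 0.000267) and Tpm1 M60666_s_at at -0.68 (limma adjusted p = 0.0159). Both Tagln probe sets passed the threshold without that array, at -2.43 and -2.01 (limma adjusted p = 0.0173 and 0.0355), and without the pool 1 array of 10 nM, at -2.51 and -2.17 (limma adjusted p = 0.0175 and 0.0181). They also passed without the 10000 nM PCB 126 array of pool 1 (limma adjusted p = 0.0356 and 0.0172) or of pool 2 (0.0360 and 0.0173). Those PCB 126 arrays enter this contrast only through the shared estimate of the spread, and the differences themselves stayed at -2.00 and -1.74. Without the pool block, Acta1 had a limma adjusted p = 0.0496 and Myl9 S77900_g_at lost its call (limma adjusted p = 0.0549).

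A further contrast was chosen after the values were seen, and leaves out the 316 nM dose for that reason. Its p-values and calls, also for genes outside the group, are therefore descriptions and not independent tests. The same holds for its values with arrays left out. The mean of 0.1 nM, 1 nM and 10 nM TCDD minus vehicle was called lower for 6 of 13 member probe sets and higher for 0, where 2.81% of all probe sets were called, 1.17% lower and 1.64% higher. Acta1 was at -3.80 ± 0.49 log2, or 13.9-fold lower (limma adjusted p = 0.000643). Tagln was at -3.04 ± 0.52 and -2.78 ± 0.45 (limma adjusted p = 0.00381 and 0.00289). Myl9 S77900_g_at was at -2.50 ± 0.30 (limma adjusted p = 0.000491). S77900_at was at -1.48 ± 0.26 with 0 of its 5 arrays at these doses above the filter, and without it the count is 5 of 12. S100a10 was at -1.04 ± 0.24 (limma adjusted p = 0.0316), which rose to as much as 0.230 when an array was left out. Tagln M83107_at reached an adjusted p of 0.0514 without the vehicle array of pool 1 and 0.0593 without that of pool 2, while Acta1, Tagln M83107_g_at and Myl9 S77900_g_at stayed below 0.05 without each of the 26 arrays in turn. Anxa5 stood at 0.72 and 0.47 log2 (limma adjusted p = 0.148 and 0.464).

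The PCB 126 values chose the members and are given only to show their size. In the same model Acta1 had a slope of -0.63 ± 0.11 log2 per decade of PCB 126, and Tagln had -0.51 ± 0.11 and -0.48 ± 0.095. Myl9 had -0.23 ± 0.051 and -0.38 ± 0.067, and S100a10 had -0.14 ± 0.040. The Tpm1 probe sets ran from -0.13 to -0.048, Acta2 was at -0.053 ± 0.033, and Anxa5 was at 0.12 ± 0.034 and 0.093 ± 0.031. Over the whole array 4.25% of probe sets were called in this trend, 2.69% lower and 1.56% higher. Leaving out the array labelled 1 pM of pool 2 changed the Acta1 slope to -0.66. By pool the Acta1 slope was -0.68 ± 0.17 in pool 1 and -0.59 ± 0.16 in pool 2. At 1000 nM and 10000 nM together, Acta1 was below vehicle by 3.75 log2 (SE 0.50), Tagln by 3.04 and 2.95, Myl9 by 1.43 and 2.57, and S100a10 by 0.98. Anxa5 was above vehicle by 1.05 and 0.81 log2. Over the whole array 3.04% of probe sets were called in this contrast, 1.48% lower and 1.56% higher. The high-dose contrasts of both chemicals share the 2 vehicle arrays, so their values are set side by side without a comparison.

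**Figure D2:**
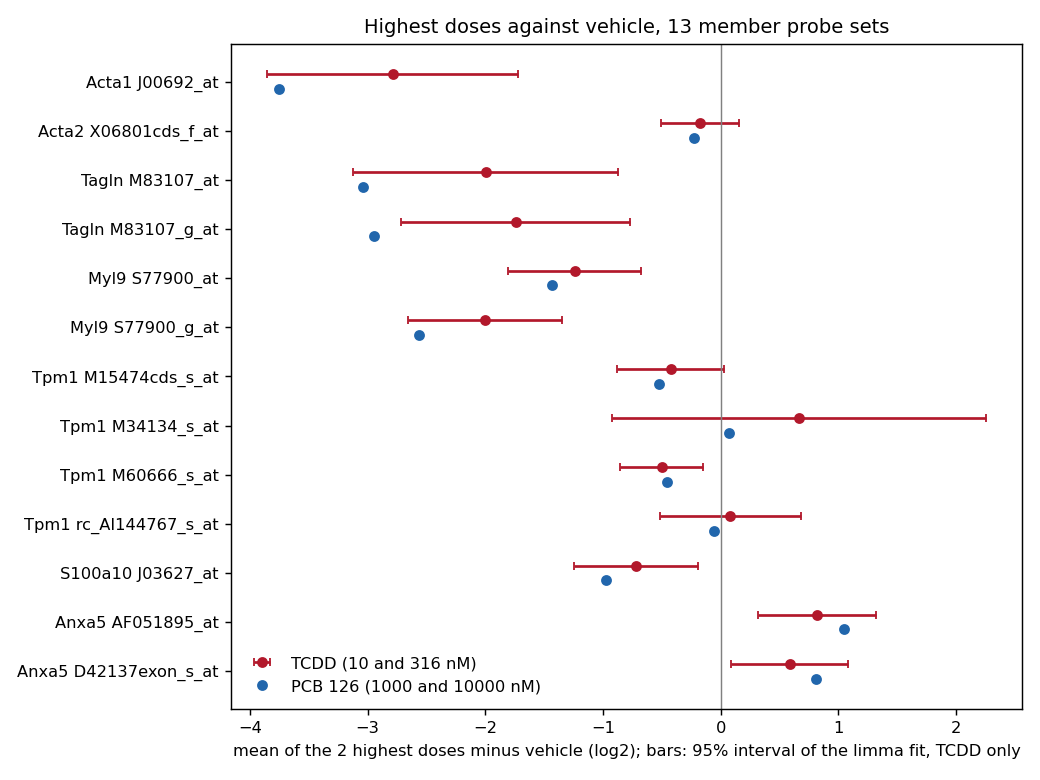
Each row is 1 member probe set, with the mean of the 2 highest doses minus vehicle on the log2 scale, red for TCDD (10 and 316 nM) with the 95% interval of the limma fit as bars, and blue for PCB 126 (1000 and 10000 nM, a description with no bars). Acta1, Tagln and Myl9 lie far to the left for both chemicals, Anxa5 to the right, and Acta2 close to 0.

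TCDD and PCB 126 shared 3 doses given to both pools. These differences hold the PCB 126 values that chose the genes, so they are a description, with the value of each pool in place of an interval or a test. At 0.1 nM Acta1 with TCDD minus Acta1 with PCB 126 was -3.19 log2 in pool 1 and -3.21 in pool 2. Tagln M83107_g_at differed by -2.35 and -2.57, Myl9 S77900_g_at by -1.98 and -1.61, and S100a10 by -1.55 and -0.71. For Tpm1 M60666_s_at the values were -0.66 and -0.47, and for Anxa5 AF051895_at 0.26 and 0.24. At 1 pM the Acta1 difference was -0.74 in pool 1 and -0.37 in pool 2, where the latter uses the PCB 126 array with the high Cyp1a1. At 10 nM it was 0.037 and -0.79. Tagln M83107_g_at differed by 1.14 and -0.40 and S100a10 by 0.46 and -0.10 at 10 nM, so the pools went opposite ways there. Acta1, Tagln, Myl9, S100a10 and Tpm1 M60666_s_at thus stood furthest apart at 0.1 nM, whereas the dim Tpm1 probe set rc_AI144767_s_at differed by -1.05 on average at 1 pM and by -0.36 at 0.1 nM. Adding the doses of 10 pM and 1 nM, which only the second pool received, gave 8 pairs of arrays of the same pool and dose. Myl9 was lower with TCDD in 8 of 8 pairs on both probe sets, and Acta1, Tagln and S100a10 in 7 of 8.

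**Figure D3:**
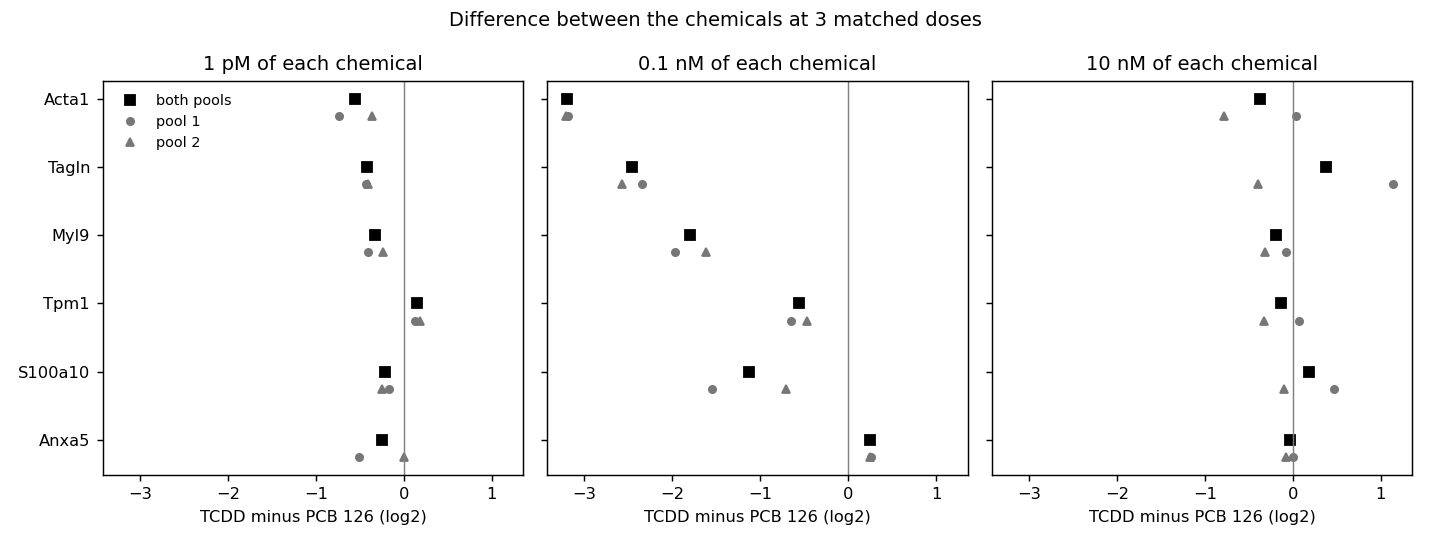
Each panel shows, for 1 dose, TCDD minus PCB 126 on the log2 scale for 6 genes, with black squares for the estimate over both pools and grey symbols for the difference within each pool. At 0.1 nM the values of Acta1, Tagln, Myl9, S100a10 and Tpm1 lie below 0 in each pool, and at 10 nM those of Acta1, Tagln and S100a10 lie on opposite sides of 0.

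For Acta1, Tagln and Myl9 S77900_g_at, the dose at which the gene first stood more than 1 log2 below the vehicle of its own pool shows the same order. For Acta1 this was 0.1 nM TCDD in pool 1 and 10 pM in pool 2, and 10 nM PCB 126 in pool 1 and 1 nM in pool 2. Tagln had these same doses on both probe sets. The 10 pM TCDD array behind the pool 2 value is the one with the wide actin gap, and at the next dose of that pool, 0.1 nM, Acta1 read 6.96 log2. Myl9 S77900_g_at had them too, except for PCB 126 in pool 2, where it passed the mark at 0.1 nM. Other probe sets passed it less. S100a10 did so at 0.1 nM TCDD and 10 nM PCB 126 in pool 1, and in pool 2 at 1 nM TCDD alone. Myl9 S77900_at passed it only in pool 2 and Tpm1 M15474cds_s_at only in pool 1. Tpm1 M60666_s_at and both Anxa5 probe sets never did. Pool 1 had no arrays at 10 pM and 1 nM, so its first dose is only known to within the gap. The Acta1 slope per decade did not follow this order. Its TCDD slope minus its PCB 126 slope was 0.24 ± 0.16, so the fall per decade was steeper with PCB 126. These slopes are straight lines over unlike doses, 0.01 pM to 316 nM of TCDD and 1 pM to 10000 nM of PCB 126. The TCDD slope also holds the high 316 nM array of pool 2.

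The pools themselves differed over most of the array, with 79.8% of probe sets called, 40.0% higher and 39.7% lower in pool 2. Of the 13 member probe sets, 5 were called, 4 higher and 1 lower in pool 2 than in pool 1, or 4 of 12, 3 higher and 1 lower, without Tpm1 M34134_s_at. S100a10 was higher by 0.45 ± 0.14 log2 (limma adjusted p = 0.00469), Anxa5 D42137exon_s_at by 0.35 ± 0.11 (limma adjusted p = 0.00434) and Myl9 S77900_at by 0.43 ± 0.17 (limma adjusted p = 0.0271). The Myl9 call was lost without the vehicle array of pool 1 or of pool 2 (limma adjusted p = 0.0713 and 0.0729) and without the pool 1 array of 1 pM PCB 126 (0.0515). Tpm1 M34134_s_at was higher by 1.68 ± 0.31, with no pool 1 array above the filter. Acta2 was lower by 0.38 log2 (SE 0.11, limma adjusted p = 0.00348). Acta1 differed by 0.25 ± 0.38 (limma adjusted p = 0.555) and Tagln by 0.67 ± 0.37 and 0.60 ± 0.32 (limma adjusted p = 0.1003 and 0.0925). Both Tagln probe sets passed without the pool 2 array of 0.1 nM TCDD (0.0478 and 0.0412), as did M83107_g_at without the pool 2 array of 1 nM TCDD (0.0362). These directions depend on scaling. Centring arrays on their medians moved the median of all probe sets from 0.024 to 0.30 log2. Acta2 was then at -0.10 (limma adjusted p = 0.372), and Tagln at 0.94 and 0.87 (limma adjusted p = 0.0232 and 0.0165). Quantile normalization put the median of all probe sets at -0.062 and Acta1 at -0.12 (limma adjusted p = 0.786). The actin gap between 3′ and 5′ probe sets differed between the pools as well, and its part in these differences was not tested.

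Among other genes of the actin and contractile apparatus, Rhob was called with both chemicals and Cald1 with PCB 126. A list of 55 such genes, with the members left out, had 37 on the array and 28 above the filter. At the highest TCDD doses 1 of the 28 was called higher and 0 lower, with a median of -0.091 log2 against -0.063 for all probe sets. The called gene was Rhob, a small GTPase that acts on the cytoskeleton, at 0.89 ± 0.16 log2 (limma adjusted p = 0.00627). In the TCDD trend Rhob rose by 0.12 ± 0.029 per decade (limma adjusted p = 0.0243), again 1 of 28, with 5 of the list at an unadjusted p below 0.05. Of all 5197 probe sets, 753 had such an unadjusted p in that trend. Next by p came Rac1 at -0.11 ± 0.037, Arpc1b at 0.074 ± 0.028 and Rock2 at -0.046 ± 0.021 (limma adjusted p = 0.0979, 0.180 and 0.301). Cytoplasmic beta actin (Actb) read 13.53 to 14.02 log2 on all arrays. In the PCB 126 trend the list had 1 gene lower, caldesmon (Cald1), at -0.22 ± 0.047 log2 per decade (limma adjusted p = 0.00858), and at the highest PCB 126 doses Rhob was higher, at 0.81 ± 0.16 (limma adjusted p = 0.00936).

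Relatives of S100a10 and Anxa5 gave no call. Of 17 other annexin and S100 genes, 12 were on the array and 10 above the filter. With limma 0 of 10 passed in the TCDD trend, with 3 at an unadjusted p below 0.05, and 0 of 10 at the highest doses, with 4. Over the whole array 753 and 566 of 5197 probe sets had such an unadjusted p in these comparisons. Annexin A2 (Anxa2), the binding partner of S100a10, was at -0.047 ± 0.018 log2 per decade (limma adjusted p = 0.192) and Anxa4 at 0.060 ± 0.038 (limma adjusted p = 0.511). Anxa1 and Anxa3 were at -0.095 ± 0.043 and -0.075 ± 0.033 (limma adjusted p = 0.304 and 0.277).

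Known targets of serum response factor were listed because Acta1 and Tagln belong to that group. Of 19 others, 11 were on the array and 9 above the filter. Here limma called 0 in the TCDD trend, with 1 at an unadjusted p below 0.05, and 0 at the highest doses, with 3. The counts over all 5197 probe sets were 753 and 566 at such an unadjusted p. The immediate early gene Egr1 was at 0.84 ± 0.28 log2 and the LIM protein gene Fhl2 at -1.03 ± 0.32 at the highest doses (limma adjusted p = 0.182 and 0.136). Fosl1 was at 0.59 ± 0.18 and Ccn1 at -0.35 ± 0.23 (limma adjusted p = 0.134 and 0.678). In the contrast of 0.1 to 10 nM TCDD chosen later, Fhl2 was lower, at -1.48 ± 0.31 (limma adjusted p = 0.0170), 1 of 9. In the PCB 126 trend Fhl2 and Cald1 were lower, 2 of 9, with Fhl2 at -0.25 ± 0.053 log2 per decade (limma adjusted p = 0.00755).

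Acta2 and Tagln also mark stellate cells, fibroblasts and smooth muscle, so markers of those cells were read on the same arrays. Of 22 stellate cell and fibroblast markers other than the members, 17 were on the array and 11 above the filter. Desmin (Des) read at most 1.82 log2, Mgp at most 2.22, Col1a2 at most 2.60 and Pdgfrb at most 3.63, all below the filter. The mean of the 17 markers was 4.86 and 4.68 log2 in vehicle of pools 1 and 2. From 0.1 nM TCDD up it ran from 4.65 to 4.87 in pool 1 and from 4.50 to 4.60 in pool 2, and from 10 nM PCB 126 up it ran from 4.54 to 4.68 and from 4.43 to 4.67. By this mean the pool 2 ranges at these doses lie below vehicle and those of pool 1 reach it or lie below it. The log2 of the summed linear level of the 17, which the bright genes lead, was 13.24 and 12.57 in vehicle of pools 1 and 2. It ran from 12.78 to 12.89 and from 12.70 to 12.99 at these TCDD doses, and from 12.11 to 12.69 and from 12.62 to 12.86 at these PCB 126 doses. By the sum, pool 1 lay below its vehicle and pool 2 above it. Sparc and Fn1, the latter a gene that hepatocytes express themselves, were bright, at 10.36 to 12.47 and 11.20 to 12.35 log2.

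Among these markers limma called 0 of 11 in the TCDD trend, with 1 at an unadjusted p below 0.05, and 0 of 11 at the highest doses, with 2. All 5197 probe sets had 753 and 566 at such an unadjusted p. Lox, a collagen cross-linking enzyme gene that ranged from 4.25 to 6.88 log2, was at -1.34 ± 0.36 at the highest TCDD doses (limma adjusted p = 0.0704). In the contrast of 0.1 to 10 nM TCDD chosen later, Lox was lower, at -1.64 ± 0.35 (limma adjusted p = 0.0187), 1 of 11. In the PCB 126 trend Lox was lower too, at -0.24 ± 0.064 per decade (limma adjusted p = 0.0309), again 1 of 11. Of 6 smooth muscle markers 4 were on the array, and Myh11, Actg2 and Cnn1 read at most 3.95, 3.86 and 3.82 log2, near the floor. Of the 5 macrophage markers above the filter, the lysozyme gene Lyz2 fell with TCDD, at -0.19 per decade (limma adjusted p = 0.00915). The other 4 were not called, and the median of the 5 was 0.00020 log2 per decade, against -0.0094 for all probe sets. The part of these cells in the fall of Acta1, Tagln and Myl9 was not tested.

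**Figure D4:**
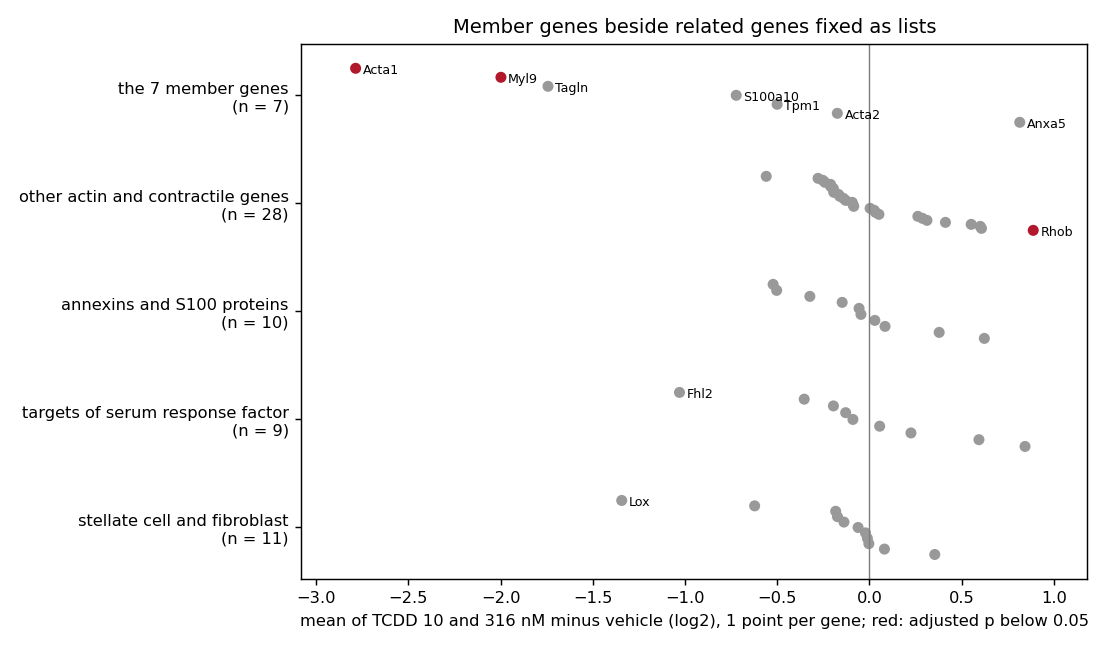
Each point is 1 gene, placed by the mean of 10 and 316 nM TCDD minus vehicle on the log2 scale and set in rows for the 7 members and 4 related lists, with genes at a limma adjusted p below 0.05 in red. Acta1 and Myl9 lie at -2.79 and -2.00, left of every gene of the related lists, Lox and Fhl2 come next among those lists, and Rhob is red at 0.89.

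The members moved together to different degrees. Each gene is represented here by its brightest kept probe set, which for Tpm1 is M60666_s_at. After the mean of its pool was taken from each value, Acta1 and Tagln had a Pearson r of 0.969 over the 26 arrays, and 0.955 and 0.987 within pools 1 and 2. Acta1 had 0.912 with Myl9, 0.898 with Tpm1 M60666_s_at and 0.884 with S100a10. With Anxa5 it had -0.662 and with Acta2 0.384. These arrays share pools, doses and processing, so the values are descriptions. The choice of members by their fall with PCB 126 also favours such values.

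The genes outside the group whose course was most like that of each member were ranked in the same way among 3027 genes. For Acta1 these were Aopep, Rnase4 and Tsc22d1, with r of 0.945, 0.936 and 0.923. Aopep and Rnase4 also led for Tagln, at 0.946 and 0.932, followed by Serpinb9 at 0.926. Myl9 was nearest to Tsc22d1 at 0.915, Aopep at 0.912 and Slc37a4 at 0.890. S100a10 was nearest to Nupr1, Rnase4 and Serpinb9, at 0.950, 0.949 and 0.945. Tpm1 M60666_s_at was nearest to Dusp1, Kynu and Cavin3, at 0.873, 0.872 and 0.871. Anxa5 stood with Cyba at 0.922, and then Lcn2 and Lbp at 0.839 and 0.835, the latter a pair of acute phase genes. Acta2 was nearest to the cytoplasmic actin Actg1, at 0.820, and then to Ptms and Emd at 0.809 and 0.761. Acta2 and Actg1 were both lowest on the 10 pM TCDD array of pool 2 with the wide actin gap, at 4.36 and 10.74 log2. Their correlation without that array was not computed. The probe sets of both genes carry the suffix _f, so they can match a gene family.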

How the data were processed

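Expression was measured on 26 short-oligonucleotide rat arrays, in 15 groups of 2 arrays (1 per pool) or 1 array. The authors deposited log2 expression values. Per the submitters' processing notes these came from GCRMA 2.8.0, and the notes also name RMA. Settings of either step: not given in the sources used here. GCRMA draws dim signals together, so changes of dim probe sets are compressed. The number of arrays limits the precision.

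After 59 control probe sets were dropped, 5197 of 8740 passed the filter. Every test used limma 3.58.1 (R 4.3.3) on the deposited log2 values. Variances were moderated by eBayes, robust and with a trend, and Benjamini-Hochberg adjusted p below 0.05 over all probe sets that passed was a call. The trend model held pool, chemical and, within a chemical, a slope per decade of dose (20 residual degrees of freedom). The group model held pool and 15 groups (10), and the model of slopes by pool had 18. The trend and group models were tested on simulated data, and the model of slopes by pool was not. Pool, the replicate number in the labels, was a block because its arrays come from the same animals. Over 11 groups with both pools, deviations of arrays of the same pool correlated at 0.461 to 0.892.

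The members and the gene lists were chosen with earlier results of these data known. Named genes are all probe sets of the 7 members, the 3 genes most like each, and per list up to 4 genes with the smallest p in the TCDD trend and any past the threshold. Hepatocyte markers are given as counts, with the levels of some. Names came from the platform's annotation table, and all 7 genes matched the RefSeq gene table of GRCr8. Alternatives were other scalings, filters, models and subsets of arrays, each array left out included.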

Additional observations from a re-analysis of the deposited data

How the results depend on the processing

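Of 635 member values under 14 alternatives that leave out no single array, 572 kept their direction and their side of the threshold or moved by less than their error. Of the others, 14 turned direction, 13 lost a call, 28 gained one and 8, PCB 126 values with no test, moved by more than that, and the cause was not tested. Acta1 in the TCDD trend (limma adjusted p = 0.0507) passed when vehicle was set 1 decade under the lowest dose (0.00385), when the highest dose was dropped (0.000375), with a stricter filter (0.0250) and with the probe sets of a gene averaged (0.0425).

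Counts over all probe sets moved more. Of 161 called in the TCDD trend, centring arrays on their median gave 103, vehicle 1 decade under the lowest dose 298, only TCDD arrays 46, pool 2 alone 12 and pool 1 alone 0. For the highest TCDD doses, 117 became 66 with centring. The pool difference, 4145, became 7547 with no filter and 2078 with a median over 5 log2. The TCDD slope between pools, 0, became 1 with quantile normalization and 2 with eBayes run with neither trend nor robust. In the PCB 126 trend, 221 became 104 with doses of both pools only, 339 with vehicle 1 decade below, 69 without the highest dose, 367 with only PCB 126 arrays, 110 in pool 2 alone and 0 in pool 1 alone. With no replicate block, the TCDD trend gave 39, the highest TCDD doses 27, the PCB 126 trend 56 and the highest PCB 126 doses 39. No value for the pool difference or the slope between pools exists without that block.

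Leaving out each array in turn gave 85 to 257 for the TCDD trend, 52 to 165 for the highest TCDD doses, 4020 to 4168 for the pool difference, 0 to 4 for the slope between pools, 53 to 371 for the PCB 126 trend and 80 to 180 for the highest PCB 126 doses. The lowest counts came without the pool 1 array of 316 nM TCDD (85), the pool 2 vehicle array (52 and 80) and the pool 1 array of 1 pM PCB 126 (53), and the highest without the pool 2 array of 316 nM TCDD (257 and 165) and the pool 1 array of 1000 nM PCB 126 (371).

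Direction turned for the following values. In the pool difference, centring gave Tpm1 M15474cds_s_at 0.073, Tpm1 M60666_s_at 0.25 and Anxa5 AF051895_at 0.25, quantile normalization gave Acta1 -0.12 and Tpm1 rc_AI144767_s_at -0.13, and averaging the probe sets of a gene gave Tpm1 0.37 and Anxa5 0.17. That averaging also gave Tpm1 0.0013 in the TCDD trend, and Myl9 -0.014 and Tpm1 -0.056 in the TCDD slope between pools. Pool 2 alone gave Acta2 0.025 and Tpm1 rc_AI144767_s_at -0.032 in the TCDD trend. Without the highest dose Tpm1 M34134_s_at was 0.049 in the PCB 126 trend, and at 0.1 to 10 nM TCDD, chosen after seeing the data, Tpm1 rc_AI144767_s_at was -0.046. With arrays left out in turn, the TCDD slope between pools ranged from -0.26 to 0.33 for Acta1, from -0.22 to 0.085 and -0.14 to 0.23 for Myl9 S77900_at and S77900_g_at, from -0.23 to 0.27 and -0.25 to 0.15 for Tagln M83107_at and M83107_g_at and from -0.024 to 0.079 for Tpm1 M60666_s_at. The Acta2 TCDD trend ranged from -0.024 to 0.0088. The pool difference ranged from -0.074 to 0.053 for Anxa5 AF051895_at, from -0.058 to 0.013 for Tpm1 M60666_s_at and from -0.042 to 0.072 for Tpm1 rc_AI144767_s_at. Tpm1 M34134_s_at ranged from -0.64 to 0.79 at the highest PCB 126 doses and from -0.10 to 0.076 in the PCB 126 trend, and Tpm1 rc_AI144767_s_at from -0.31 to 0.19 at the highest PCB 126 doses.

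Dim probe sets such as Myl9 S77900_at and Tpm1 M34134_s_at lie near the floor, where a change can be larger than the value shows. Each dose has 1 or 2 arrays, so a single array can move a contrast, as for vehicle.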
